A study of Mus musculus with 3 samples.

Results

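The cells described here were macrophages of mouse glioblastoma (GBM) with abundant transcripts of the major histocompatibility complex (MHC) class II genes and of complement C1q, and with few transcripts of the microglia genes. They numbered 1667 of the 11218 CD45+ cells that passed a filter on depth, and CD45 is the surface protein shared by nucleated blood cells. Both sorts of the series together held 20811 cells. Members were chosen cell by cell on raw counts of unique molecular identifiers (UMIs), each of which tags 1 captured RNA molecule. A member had at least 5 UMIs over C1qa, C1qb and C1qc, at most 2 over the microglia genes P2ry12, Tmem119 and Gpr34, at least 20 over H2-Aa, H2-Ab1, H2-Eb1 and Cd74, at most 4 over Arg1, Spp1 and Gpnmb, and at most 2 over Mrc1, Cbr2 and Pf4, which mark border macrophages. The filter kept cells with at least 500 UMIs, at least 500 genes and at most 20% mitochondrial UMIs. Because these counts chose the cells, the levels of the 16 genes named here are given as a description, with no test.

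The study followed tumors that were started in situ in adult mice. Mice of every group carried a conditional human wild type EGFR transgene, lacked Cdkn2a (Cdkn2a-/-) and carried a conditional luciferase reporter, on a mixed background (129S4, Balb/cJ, C57Bl/6J, FVBN/J and SJL). Recombination followed an intracranial injection of lentivirus that expressed iCre, alone or with TGFa, so the tumor arose from whichever cells the virus infected, and the groups used here were named for no drug or radiation. Tumors were annotated as early, medium or large, the last called late here, and cells were sorted for CD45, encapsulated on the inDrop system and sequenced in 3 runs that each mixed stages and sorts. The protocol names 3 harvested samples, of which 1 was pooled, with 4 libraries made per sample, and each stage held 4 libraries of CD45+ cells. Each stage was therefore treated as 1 tumor sample and its libraries as technical repeats, although the labels tie no library to a mouse. Stages could therefore be compared only as single samples, with counting error and no test, while populations of cells were compared within the 3 tumor samples. The labels of the deposited samples, 1 per run, title run 3 as a tumor and the others as pools of tumors. The study described each early sample as pooled and each late sample as a single tumor. Whether the runs also differ in mice cannot be told from the labels.

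The members held 3717324 UMIs in all, with a median of 1980 UMIs (938 to 10213) and 890 genes per cell, and mitochondrial genes took a median of 3.30% of UMIs. The 136 early members had a median depth of 2004.5 UMIs, the 1316 medium ones of 1929.5 and the 215 late ones of 2357, and the summed depth was 287778, 2878558 and 550988 UMIs. The early CD45+ libraries held 497 to 674 counts per 1000000 UMIs (CPM) of the X-linked transcripts Xist and Tsix and 76.5 to 98.1 CPM of Y-linked genes, whereas the medium and late libraries held 0 to 15.1 CPM of Xist and Tsix and 135 to 200 CPM of Y-linked genes. The early sample thus differed from the others in sex-linked transcripts as well as in stage, and the 2 cannot be told apart there. The mice listed for late tumors in the study are all female, so the Y-linked transcripts of the late libraries do not match that list, and which mice these libraries came from was not given in the sources used here. The smallest late library, with 17 cells, held no member. Of the members, 326 carried a cell barcode that another library also held, 108 of them within the same run. A doublet caller marked 33 of 11110 cells (0.297%) and 4 of 1649 members tested, a share too low for the caller to be relied on. For 108 members, 3 or more UMIs of lymphoid, neutrophil or brain cell markers were counted.

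As background, MHC class II molecules present peptides of ingested proteins to CD4 T cells. Their chains, H2-Aa, H2-Ab1 and H2-Eb1 in the mouse, are assembled with the invariant chain Cd74, cathepsins trim that chain, and H2-DM exchanges its last fragment for peptide under the control of the transactivator Ciita. Interferon-gamma from T and NK cells induces Ciita, the chemokines Cxcl9 and Cxcl10 that draw T cells through Cxcr3, and guanylate-binding and immunity-related GTPases that act against intracellular microbes. Type I interferon induces an overlapping set through the interferon-stimulated response element (ISRE). In brain tumors, macrophages arise both from resident microglia and from blood monocytes.

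The promoters of 2 class II chains used by the rule, of 2 chemokines and of 1 interferon-inducible GTPase are shown first, as examples of motifs that are then counted over the gene lists. Each run is the 200 bases before the RefSeq start on GRCm38.p6, 5′ to 3′ on the gene's strand, with capitals marking an ISRE (GAAA, any 2 bases, then GAAA, or TTTC, any 2 bases, then TTTC), a gamma-activated site (GAS, TTCNNNGAA) or a Y box (ATTGG or CCAAT, the last box of the class II promoter module), searched on both strands.
H2-Eb1, chr17:34305667-34305866, plus strand: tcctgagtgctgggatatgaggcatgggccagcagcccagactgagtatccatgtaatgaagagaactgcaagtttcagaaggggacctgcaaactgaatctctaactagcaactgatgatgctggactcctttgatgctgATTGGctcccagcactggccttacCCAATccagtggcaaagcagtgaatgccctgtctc
H2-Aa, chr17:34287824-34288023, minus strand: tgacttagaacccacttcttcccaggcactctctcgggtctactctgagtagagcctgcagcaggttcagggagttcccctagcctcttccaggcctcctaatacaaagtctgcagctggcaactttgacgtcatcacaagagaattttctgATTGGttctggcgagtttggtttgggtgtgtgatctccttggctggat
Cxcl9, chr5:92328080-92328279, minus strand: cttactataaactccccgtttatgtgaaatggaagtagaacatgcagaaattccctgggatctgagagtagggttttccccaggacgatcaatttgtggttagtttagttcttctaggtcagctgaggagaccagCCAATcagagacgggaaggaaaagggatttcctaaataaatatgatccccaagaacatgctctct
Cxcl10, chr5:92348890-92349089, minus strand: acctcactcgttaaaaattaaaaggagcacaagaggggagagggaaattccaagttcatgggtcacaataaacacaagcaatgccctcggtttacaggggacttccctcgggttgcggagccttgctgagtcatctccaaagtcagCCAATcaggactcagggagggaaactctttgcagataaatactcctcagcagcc
Igtp, chr11:58199356-58199555, plus strand: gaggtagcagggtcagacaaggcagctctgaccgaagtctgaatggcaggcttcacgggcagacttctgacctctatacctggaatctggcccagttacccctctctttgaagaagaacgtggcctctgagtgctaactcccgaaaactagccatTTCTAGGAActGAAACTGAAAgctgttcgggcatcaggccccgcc
H2-Eb1, a class II beta chain, held a Y box from base 59 to 55 before the start and another from 35 to 31, and H2-Aa, a class II alpha chain, held 1 from 48 to 44. Cxcl9 held a Y box from 65 to 61 and Cxcl10 from 54 to 50, and neither held the ISRE or GAS letters in this window. Igtp, an immunity-related GTPase, held a GAS from 45 to 37 and an ISRE from 34 to 25, which do not overlap. Over the lists used below, 10 of the 11 interferon-inducible GTPase genes with a promoter in the table held an ISRE and 6 held a GAS, against 2.65% and 6.38% of all 27025 genes. Of the 12 class II loading and control genes in the table, 9 held a Y box, against 32.7% of all genes, and 1 held an ISRE. Of the 19 MHC class I presentation genes in the table, 13 held a Y box and 3 an ISRE, and of the 20 type I interferon-stimulated genes 8 held a Y box and 10 an ISRE. A match is a description of letters, not a bound site.

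The class II transcripts of the rule were abundant at every stage. H2-Aa stood at 15515, 19174 and 11866 CPM (early, medium, late), H2-Eb1 at 10810.4, 15142 and 9095 CPM, and Cd74, the invariant chain, at 15846, 19174 and 13049 CPM. The 4 class II genes of the rule together gave a median of 107 UMIs per cell, with 40 at the 10th and 204 at the 90th percentile, so most members lay well above the threshold of 20. By stage the median was 89, 112 and 80 UMIs. C1q gave a median of 26 UMIs. Cxcl9, which the rule did not use and which was proposed as a marker of these cells, had a UMI in 24.4% of members, against 0.957% of T cells, which should lack it, at median depths of 1980 and 1906.5 UMIs. It marked part of the population only, and almost none of the late members.

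Outside the rule, the members carried the macrophage transcripts named here, and the dendritic cell genes Flt3 and Zbtb46 were near the background. The wider lists are compared below. Flt3, the growth factor receptor of dendritic cells, had a UMI in 1.92% of members against 1.67% of T cells, which is the background level, and Zbtb46, a transcription factor of classical dendritic cells, in 0.240%. Lyz2, the lysozyme of monocytes and macrophages, was found in 83.7% of members, 25.8% of microglia and 6.46% of T cells. Ms4a7, a membrane protein of monocyte-derived and border macrophages, was found in 19.5% of members, 2.74% of microglia and 0.957% of T cells. Sall1, the microglia transcription factor, was found in 4.56% of members, 27.8% of microglia and 0% of T cells. The T cell gene Cd3e had a UMI in 1.08% of members and the human EGFR transgene in 0.600%.

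Cells just inside and just outside each threshold are given as a description. The 592 members with 1 or 2 UMIs of the microglia genes held 37.8 CPM of Sall1 and 322 CPM of Cxcl9, and the 289 cells with 3 or 4, which the rule left out, held 86.2 CPM of Sall1 and 305 CPM of Cxcl9. The 43 members with 20 to 24 class II UMIs held 44.8 CPM of Cxcl9, and the 40 cells with 15 to 19 held 278 CPM. At the C1q threshold, the 42 members with 5 or 6 UMIs held 696 CPM of Cxcl9 and the 30 cells with 3 or 4 held 373 CPM. The 72 members with 3 or 4 UMIs of Arg1, Spp1 and Gpnmb held 140 CPM of Cxcl9, and 41 of them were late cells, while the 38 cells with 5 or 6 held 24.1 CPM. For Mrc1, Cbr2 and Pf4, the 219 members with 1 or 2 UMIs held 728 CPM of Cxcl9 against 245 CPM in the 92 cells with 3 or 4. Cells thus lay on both sides of every threshold, and whether the thresholds follow a gap was not tested.

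The share of CD45+ cells that met the rule was highest in the medium sample. Members were 136 of 5110 early cells (2.66%, 95% Clopper-Pearson interval 2.24 to 3.14), 1316 of 3988 medium cells (33.0%, 31.5 to 34.5) and 215 of 2120 late cells (10.1%, 8.89 to 11.5). The intervals did not overlap, but they cover counting error only, and 1 tumor sample stood for each stage. Among the early libraries the share was 2.80% in run 1, 2.19% in run 2, and 2.84% and 2.96% in run 3. The medium libraries gave 31.6% in run 1, 34.98% and 30.7% in run 2 and 32.8% in run 3. The late libraries gave 0 of 17 cells in run 1, with an exact upper limit of 19.5% (3 counts of the total would be 17.6%), then 18 of 91 cells (19.8%, 12.2 to 29.4) in run 1, 11.8% in run 2 and 8.11% in run 3. The order medium, late, early held in every run with members of all 3 stages and under every change of the thresholds that was tried.

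**Figure D1:**
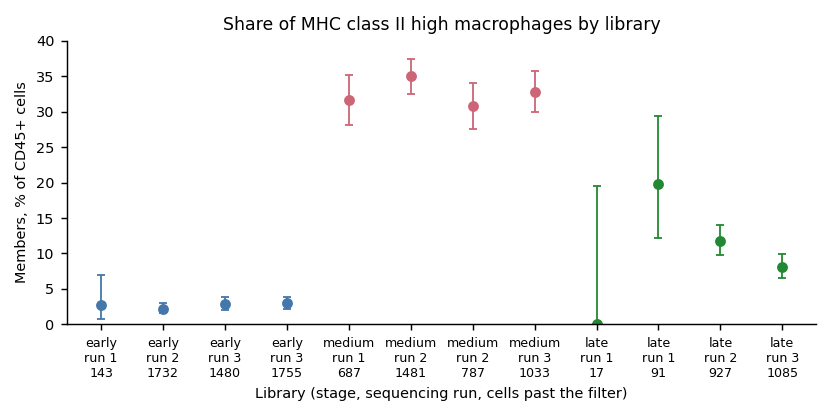
Share of CD45+ cells that met the rule, as a percentage on the y axis, for each of the 12 libraries grouped by stage, with run and number of cells under each point; bars are exact 95% Clopper-Pearson intervals. The 4 medium libraries sit between 30.7% and 34.98%, above every early library (2.19% to 2.96%) and every late library with a member (8.11% to 19.8%); the late library at 0 held 17 cells.

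Among C1q+ cells with few microglia transcripts, members were the largest class in the medium sample only. Cells with at least 5 C1q UMIs and at most 2 of the microglia genes numbered 583 early, 1647 medium and 672 late. Of these, members were 23.3%, 79.9% and 32.0%. Cells with fewer than 20 class II UMIs made up 48.9%, 12.6% and 42.9% of that gate, given as early, medium and late. Cells with 5 or more UMIs of Arg1, Spp1 and Gpnmb, genes of macrophages in wounds and hypoxic tumor, were 1.54%, 2.91% and 25.6%, and cells with 3 or more of Mrc1, Cbr2 and Pf4 were 34.3%, 7.65% and 16.96%. These classes overlap, so their shares do not add up.

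Each population for comparison was drawn from the same CD45+ suspensions. Microglia were 5253 cells with at least 5 C1q UMIs and at least 5 UMIs of P2ry12, Tmem119 and Gpr34, under the same limits on the Arg1 and Mrc1 groups as the members. Arg1/Spp1 macrophages were 202 cells that passed the C1q, microglia and Mrc1 limits of the members but held 5 or more UMIs of Arg1, Spp1 and Gpnmb, namely 9 early, 39 medium and 154 late cells. Complement-low cells were 378 cells with at least 20 class II UMIs, at most 2 C1q UMIs and none of 3 B cell genes. UMIs were summed per tumor sample and population and tested with edgeR's quasi-likelihood test with the tumor sample as a block, and P values were adjusted by Benjamini-Hochberg over all genes tested. The 16 genes of the rule were left out. The 3 tumor samples were the replicates, and the P values measure only the spread between them. Log2 fold changes are given as members over the other population, with their standard error.

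Against microglia, 1248 of 12298 genes were higher (10.1%) and 961 lower (7.81%) in the members at an adjusted P under 0.05, and 887 and 1471 without normalization factors, which moved the median of all genes from -0.03 to -0.21. The members held higher levels of genes listed as monocyte-derived, of lipid handling genes and of type I interferon-stimulated genes. Microglia identity genes that the rule had not used were lower. Of 33 monocyte-derived genes tested, 22 rose and 1 fell, with a median log2 fold change of 2.41 against -0.03 over all genes. Of 11 border macrophage genes outside the rule, 6 rose and 1 fell (median 1.82). The study gave Lyz2, Ms4a7, Ms4a6c and Tgfbi, all on the monocyte-derived list, as genes of its border macrophage cluster. These lists therefore do not separate monocyte-derived from border macrophages. Of 30 further microglia genes, 25 fell and none rose, with a median of -1.75. The rule had removed cells with transcripts of microglia genes, so the fall of the microglia list is no independent finding. Of 22 dendritic cell genes 8 rose and 4 fell (median 0.68), and of 13 macrophage genes 3 rose and 4 fell (median -0.10).

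Ms4a7 (chr19:11321039-11336146 on mm10) stood at 174, 151 and 290.4 CPM (early, medium, late) in the members and at 11.3, 21.9 and 27.2 CPM in microglia of the same samples. The populations did not overlap, as held for 33.3% of all genes, and the log2 fold change was 3.55 ± 0.24 (adjusted P = 1.78e-10, edgeR quasi-likelihood test). Ccr2, the receptor that brings monocytes out of the marrow, was higher by 1.97 (adjusted P = 4.07e-06), while Ly6c2, a gene of inflammatory monocytes, did not pass the test (1.10, adjusted P = 0.283). Sall1 stood at 27.8, 28.5 and 19.96 CPM in the members and 212, 167 and 235 CPM in microglia, with no overlap and a log2 fold change of -2.72 ± 0.24 (adjusted P = 1.69e-08). Siglech, a microglial lectin, and P2ry13, a nucleotide receptor, fell by 2.68 and 2.73 on the log2 scale.

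Named by rank, the genes furthest above microglia were Retnla, Aoah, Itga8, Ear2, Ear1, Ccl8, Lilra5, Mgl2, Sirpb1c and Clec4n. Retnla, a secreted product of alternatively activated macrophages, stood at 170.3, 9.03 and 1675 CPM in the members and 0.513, 0 and 15.1 CPM in microglia, and its 49 early and 26 medium UMIs in the members each lay in 1 cell. Ccl8, a monocyte chemokine, stood at 136, 333 and 50.8 CPM against 0.898, 13.2 and 2.02 CPM, higher in each sample, with a log2 fold change of 5.62 ± 0.40 (adjusted P = 1.77e-07). Mgl2, a galactose lectin of macrophages and dendritic cells, was higher by 5.24 (adjusted P = 1.43e-10). Aoah, which deacylates endotoxin, had 33 UMIs in the members and 1 in microglia, a ratio of 102 (95% interval 17.1 to 4157), and Itga8, an integrin chain, had 37 and 0, at least 38.2-fold higher. Such ratios on few UMIs pool the 3 samples, of which the populations held unequal shares. Ear1 and Ear2 are near-identical ribonuclease genes whose reads could be split between them, so their separate levels are uncertain. The genes furthest below microglia were Zfp697, Myadml2, Bend5, Apobec2, Slco4a1, Gp9, Chst8, Adamts16, Nhs and Rsl1. Zfp697, Myadml2, Bend5 and Apobec2 had no UMI in the members, at least 9.15, 7.97, 9.36 and 8.61-fold lower. Slco4a1, an organic anion transporter, and Gp9, a platelet glycoprotein gene, had 2 and 1 UMIs in the members, 58.0-fold (15.9 to 480.5) and 75.2-fold (13.4 to 2984) lower.

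Genes of lipid handling followed the monocyte genes. Of 26 tested, 15 rose and 4 fell against microglia. Apoe, which carries lipid between cells, stood at 16812, 22714 and 47535 CPM in the members and 2208, 4176 and 6767 CPM in microglia, the members being higher in each sample with no overlap (log2 fold change 2.90 ± 0.10, adjusted P = 1.14e-15). Lpl, lipoprotein lipase, stood at 316, 760.5 and 940.1 CPM against 67.4, 127 and 167 CPM and rose by 2.62. Against microglia that also held 20 or more class II UMIs, neither gene was called: the log2 fold change was 1.99 for Apoe (adjusted P = 0.426, edgeR quasi-likelihood test) and 1.18 for Lpl (adjusted P = 0.568, edgeR quasi-likelihood test). Trem2, a lipid receptor shared with microglia, fell by 0.52 on the log2 scale, a call lost without the medium sample (-0.56, adjusted P = 0.141, edgeR quasi-likelihood test). Of 11 complement genes other than C1q that were tested, 6 rose and 2 fell, with C3 higher by 3.08 and the alternative pathway factor Cfb by 2.5. The list summed to 1129, 1218 and 1285 CPM in the members and 1322, 1359 and 1562 CPM in microglia. Its sum was thus lower in the members of each sample.

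Type I interferon-stimulated genes were higher in the members, with 18 of 27 called, none lower and a median of 1.74. Isg15, a ubiquitin-like modifier, stood at 222, 435 and 49.0 CPM in the members against 25.4, 112 and 22.2 CPM in microglia, and Irf7, a regulator of interferon genes, was higher by 2.96. The call of Isg15 was lost after thinning to 1500 UMIs (2.26, adjusted P = 0.138, edgeR quasi-likelihood test). Without the block the calls of Isg15 and Irf7 were both lost. The members had a class II minimum and microglia had none, and its part in the difference of this list was not tested. Of 22 MHC class I presentation genes 12 rose and none fell, with H2-K1, a class I heavy chain, higher by 1.05 (0.21 and not called against microglia matched on class II), whereas of 17 interferon-inducible GTPases 3 rose. Cxcl9 did not pass against microglia in spite of its size (log2 fold change 4.53 ± 1.12, adjusted P = 0.153), and its ratio was uneven over samples: it stood at 479.5, 809.8 and 12.7 CPM in the members and 6.16, 98.9 and 1.51 CPM in microglia. Cxcl10, which shares the receptor of Cxcl9, stood at 403, 521 and 207 CPM and 503, 551 and 297 CPM, with no difference called (log2 fold change -0.12, adjusted P = 0.656).

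Of 14 loading and control genes tested against microglia, 2 rose and 1 fell, shares near those of all genes (10.1% and 7.81%): the thiol reductase Ifi30 and the H2-DM chain H2-DMb2 rose by 1.44 and 1.25 (the last 0.35 and not called against microglia matched on class II), and the asparaginyl protease Lgmn fell by 0.76. H2-DMa stood at 844, 985 and 926 CPM in the members and 175, 579 and 165 CPM in microglia, higher in each sample, but did not pass (2.00, adjusted P = 0.0560). Ciita stood at 118, 114 and 103 CPM against 9.37, 89.2 and 3.53 CPM, and the medium microglia alone came near the members (log2 fold change 2.56, adjusted P = 0.371).

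Immediate-early transcripts were lower in the members than in microglia, and inflammatory genes went both ways. Of 16 immediate-early genes 12 fell and 1 rose. Jun and Egr1, early transcription factors, fell by 1.84 and 1.99 on the log2 scale. Tnf stood at 281, 162 and 79.9 CPM in the members against 1116, 1003 and 534 CPM in microglia, lower in each sample (log2 fold change -2.28 ± 0.17, adjusted P = 8.56e-10), a call lost after thinning to 1500 UMIs (-1.82, adjusted P = 0.171), as was that of Jun (adjusted P = 0.0757). Il1a fell by 1.67, while Il1b rose by 1.33 (0.80 and not called against microglia matched on class II). Of 13 genes that the study listed as M1-like, 4 rose and 2 fell, and the list summed to 6116, 5656 and 3084 CPM in the members and 3183, 3615 and 2792 CPM in microglia. Of 27 costimulation and checkpoint genes tested, 9 rose and 6 fell (median 0.14). The list summed to 7346, 5980 and 5111 CPM in the members and 6599, 6342 and 5940 CPM in microglia. Among those that rose were Cd40, by 3.01, and the checkpoint ligand Cd274, by 1.18 (adjusted P = 0.0308), though the difference of Cd274 was 0.50 and not called without the early sample. It was found in 7.32% of members, a share near the 6.46% of T cells. Of 12 T cell markers 2 were called higher, Cd4 and Lck, beside 10.1% of all genes, and the call of Lck was lost without the early sample. The markers summed to 195, 221 and 54.4 CPM (early, medium, late) in the members and 55.6, 105 and 72.1 CPM in microglia, so they were lower in the members of the late sample. Cd4 is also expressed by macrophages.

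Against Arg1/Spp1 macrophages, the closest population by gate, 28 of 6529 genes were higher in the members (0.429%) and 15 lower (0.23%), and 26 and 32 without normalization factors. The members held more of the chemokines Cxcl9, Ccl2 and Ccl7 and of the class II editor H2-DM, and less of the matrix genes Mmp12 and Fn1, of Lpl and of cathepsins. Several of these calls, those of Lpl, Ctsb, Ctsd and H2-DMa among them, were lost under other processing, as given below. The early Arg1/Spp1 sum held 9 cells, all of run 3. The calls were few without the medium sample (2) and without the late sample (5), and of the 25 called genes of this contrast that are named here, the 22 that could be tested without the block were all lost there (0 calls, with 295 of 5545 genes at an unadjusted P under 0.05).

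Cxcl9 (chr5:92321347-92328079) stood at 479.5, 809.8 and 12.7 CPM in the members and 0, 51.2 and 1.95 CPM in Arg1/Spp1 macrophages, higher in each sample, although the late members lay below the medium Arg1/Spp1 cells (log2 fold change 4.30 ± 0.54, adjusted P = 6.35e-12, edgeR quasi-likelihood test). These levels rest on 138, 2331 and 7 UMIs in the members and 0, 5 and 1 in Arg1/Spp1 macrophages. The highest early member held 71 of its UMIs and the highest late member 6. Ccl2 and Ccl7, which draw Ccr2+ monocytes, rose by 2.63 (adjusted P = 5.99e-06) and 3.15 (adjusted P = 0.000140). After cells were thinned to 1500 UMIs they were 1.62 (adjusted P = 0.191, edgeR quasi-likelihood test) and 1.06 (adjusted P = 0.814, edgeR quasi-likelihood test), and neither was called. Of 17 chemokines tested, 4 rose and 1 fell, the last being Ccl6, at -1.35. Cxcl13, the B cell chemokine, showed no difference called (0.07), nor did Cxcl10 (1.14, adjusted P = 0.0816).

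H2-DMa (chr17:34119541-34139101) stood at 844, 985 and 926 CPM in the members and 231, 564 and 597 CPM in Arg1/Spp1 macrophages, with no overlap, as for 12% of all genes (log2 fold change 1.11 ± 0.27, adjusted P = 0.00706). H2-DMb1, its partner chain, stood at 712, 576 and 608 CPM against 28.9, 287 and 316 CPM, again without overlap (1.53 ± 0.30, adjusted P = 0.000214). With DESeq2 the calls of H2-DMa and H2-DMb1 were lost (1.13 and 1.72, adjusted P = 0.259 and 0.0922, DESeq2 Wald test). That of H2-DMa was also lost with every gene tested (1.27, adjusted P = 0.0994, edgeR quasi-likelihood test) and without run 2 (1.02, adjusted P = 0.0696, the same test). The rule set a class II minimum for the members and none for the Arg1/Spp1 cells, and its part in these differences was not tested. Ciita did not pass (1.12, adjusted P = 0.552), and the third called gene among the 10 loading and control genes tested was Ctsl, lower by 1.28 on the log2 scale.

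Matrix and lipid genes were lower in the members. Mmp12 (chr9:7344381-7369499), macrophage elastase, stood at 10.4, 5.56 and 10.9 CPM in the members and 722, 102 and 83.9 CPM in Arg1/Spp1 macrophages, with no overlap (-4.12 ± 0.55, adjusted P = 9.31e-11). Fn1, fibronectin, stood at 24.3, 44.5 and 372 CPM against 116, 697 and 1237 CPM, lower in each sample, with the late members above the early Arg1/Spp1 cells (-2.57, adjusted P = 2.98e-11). Lpl stood at 316, 760.5 and 940.1 CPM against 3639, 1814 and 1690.3 CPM (-1.59, adjusted P = 6.47e-08), and the fatty acid carrier Fabp5 was lower by 1.67. The call of Lpl was lost without normalization factors (-1.76, adjusted P = 0.943, edgeR quasi-likelihood test). It was also lost without cells of other lineages and after thinning to 1500 UMIs. Without run 2 the calls of Lpl and Fabp5 were both lost. Of 26 lipid handling genes 4 fell and none rose, and of 22 lysosomal genes 3 fell, the cathepsins Ctsb and Ctsd by 0.83 and 1.19. With DESeq2 the calls of Ctsb and Ctsd were lost (adjusted P = 0.443 and 0.109, DESeq2 Wald test). That of Ctsd was also lost without normalization factors, and that of Ctsb with every gene tested and after thinning to 1500 UMIs. Of the genes the study listed as M2-like, 3 of 15 fell and none rose, and these 3 were Fn1, Ctsb and Ctsd, already given above. The remaining lower genes named by rank were Fam20c, Vat1, Syngr1 and Sfr1, between -1.86 and -1.37.

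Some of the genes furthest above Arg1/Spp1 macrophages are not macrophage genes. Igkc and Igha, immunoglobulin chains of B and plasma cells, led the rank, with Igkc at 2116, 3568 and 21.8 CPM in the members and 0, 51.2 and 5.86 CPM in Arg1/Spp1 macrophages, and in the early members its 609 UMIs lay in 1 cell. Igha stood at 496.9, 1272.5 and 3.63 CPM in the members, on 143, 3663 and 2 UMIs, and 0, 20.5 and 1.95 CPM in Arg1/Spp1 macrophages, on 0, 2 and 1 UMIs, so the difference lay in the early and medium samples. B cell marker genes summed to 2439, 4123 and 270.4 CPM in the members by stage, and neutrophil markers, with S100a9 (3.91), to 222, 1691 and 176 CPM. Their part in the result was not tested. Gpm6b, a neural membrane protein, Mgl2 and the heat shock genes Hspa1a and Hspa1b completed the rank. The 2 heat shock genes are near-identical copies.

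Isg15 was the 1 type I interferon-stimulated gene of 17 called against Arg1/Spp1 macrophages (1.92, adjusted P = 0.00243), although the median of the list was 1.45. None of 10 interferon-inducible GTPases was called, with a median of 0.95, against 0.12 over all genes.

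Against complement-low class II high cells, of 6789 genes, 466 were higher in the members (6.86%) and 303 lower (4.46%), and 372 and 453 without normalization factors. Macrophage, lysosomal and lipid genes were higher and dendritic cell genes lower, while no difference was called for H2-DMa, H2-DMb1, Ciita or Cxcl9. Of 26 dendritic cell genes 19 fell and none rose, with a median of -2.84, and of 13 macrophage genes 12 rose and none fell. C1q, a macrophage product, had set apart the 2 populations of class II high cells. Neither the rise of the macrophage list nor the fall of the dendritic cell list is therefore an independent finding.

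Flt3 stood at 6.95, 11.8 and 10.9 CPM in the members and 124, 202 and 121 CPM in complement-low cells, with no overlap, as for 25.3% of all genes (-3.74 ± 0.39, adjusted P = 2.98e-06, edgeR quasi-likelihood test). Zbtb46, Ccr7, the receptor of migratory dendritic cells, and Xcr1, that of cross-presenting ones, fell by 3.52, 4.20 and 4.00 on the log2 scale. Csf1r, the receptor for macrophage growth factor, Adgre1, which encodes F4/80, and Mertk, a receptor for dying cells, rose by 2.84, 3.33 and 3.59. Monocyte-derived genes went the other way from the microglia comparison, with 22 of 35 lower and 2 higher, including Ccr2 (-2.35), Ly6c2 (-3.28) and Plac8 (-3.86). Further microglia genes were higher, 22 of 28, with Cx3cr1, the fractalkine receptor, at 3.66. The complement-low cells also held more neutrophil transcripts (478, 2313 and 6113 CPM against 222, 1691 and 176 CPM in the members), in the medium sample more B cell (7282 against 4123 CPM) and glioma or oligodendrocyte progenitor transcripts (952 against 44.8 CPM), and the human EGFR transgene in 5.03% of cells, and their part in these differences was not tested. The members thus lay between microglia and complement-low cells on the monocyte-derived and microglia lists. Counts of microglia genes and of C1q had set these populations apart, so this order is no independent finding.

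Lysosomal and lipid genes were higher in 19 of 22 and 19 of 26 cases, with none lower. Ctsd, the aspartyl protease of lysosomes, stood at 4764, 7613 and 8178 CPM in the members and 156, 272 and 399 CPM in complement-low cells (log2 fold change 4.85 ± 0.17, adjusted P = 4.42e-12). Cxcl13 stood at 883, 3911 and 909 CPM against 0, 41.9 and 7.13 CPM, the largest named chemokine difference, at 7.0 ± 0.30 (adjusted P = 2.71e-10, and 0.0585 without the block, edgeR quasi-likelihood test). Ccl8 and the growth factor Igf1 were higher by 4.86 and 4.85. After cells were thinned to 1500 UMIs, Ccl8 was 1.39 and not called (adjusted P = 0.710, edgeR quasi-likelihood test), and without the block the call of Igf1 was lost (5.48, adjusted P = 0.278, edgeR quasi-likelihood test). Apoc1, an apolipoprotein, was 42.7-fold higher (11.7 to 354.1) against 2 UMIs, and Cp, the copper oxidase ceruloplasmin, was higher by 5.39. The other higher genes by rank were Neurl1a, at least 6.02-fold, Fam167b, Tfpi and Dmrtb1. Klk1, Gcsam, Cd209d, Traf4, Vcan, Bcl11a, Ccr9, Sema7a, Ryr1 and Ifitm1 were furthest below, from -6.32 to -4.45.

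Between members and complement-low cells, the proteases Ctss and Lgmn were called and the H2-DM chains H2-DMa and H2-DMb1 were not. H2-DMa stood at 844, 985 and 926 CPM in the members and 1044, 859 and 1313 CPM in complement-low cells (-0.05 ± 0.18, adjusted P = 0.933), and H2-DMb1 differed by 0.11 ± 0.18 (adjusted P = 0.799), the direction of both turning with the setting used. Ciita (-0.75 ± 0.28, adjusted P = 0.102) did not pass. Cxcl9 stood at 479.5, 809.8 and 12.7 CPM against 506, 578 and 7.13 CPM, both populations being low in the late sample (0.39 ± 0.23, adjusted P = 0.365). Of 10 loading and control genes 3 rose, the proteases Ctss, Ctsl and Lgmn, and 1 fell, H2-DMb2 (-2.15). The call of Ctsl was lost under 5 alternatives, at values of 0.80 to 1.36. None of 15 interferon-inducible GTPases was called, and 1 of 20 type I interferon-stimulated genes rose and 1 fell. A difference that misses the threshold does not show equal levels. Cxcl10 was higher in the members by 0.98 (adjusted P = 0.0339), and this call was lost under 7 of 15 alternatives, among them those without normalization factors, without the early or the late sample, without run 1 or run 2 and without cells of other lineages.

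**Figure D2:**
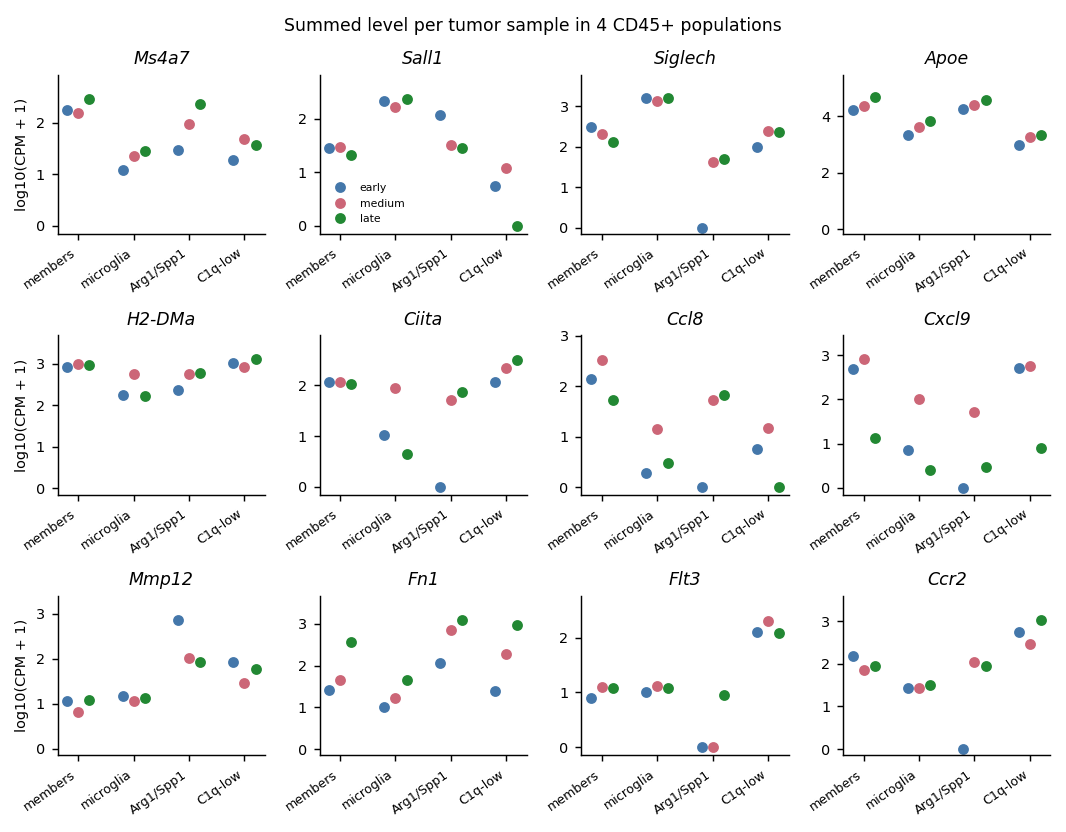
Levels of 12 genes outside the rule, as log10(CPM + 1), in the members, microglia, Arg1/Spp1 macrophages and complement-low cells, with 1 point for each of the 3 tumor samples colored by stage. Ms4a7 and Apoe are higher and Sall1 lower in the members than in microglia in each sample, Mmp12 is lower than in Arg1/Spp1 macrophages, Flt3 is lower than in complement-low cells, and Cxcl9 is low in the late sample of the members, microglia and complement-low cells.

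**Figure D3:**
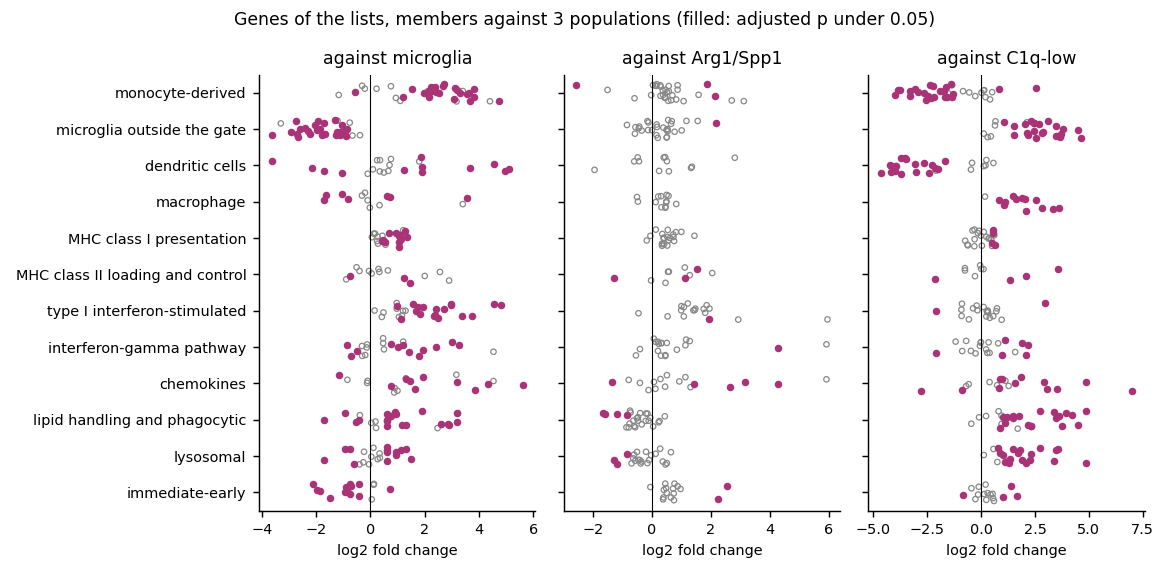
Log2 fold change of each tested gene, members over the other population, for gene lists in rows and the 3 comparisons in panels; filled points have an adjusted P under 0.05 in edgeR's quasi-likelihood test. Microglia genes outside the rule lie below 0 against microglia (25 of 30 called lower) and above 0 against complement-low cells (22 of 28 called higher), and most dendritic cell genes lie below 0 against complement-low cells (19 of 26 called lower). The populations were chosen on microglia genes and C1q, so these directions are no independent findings.

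Late members were lower than medium members in interferon-responsive genes and near them in class II loading genes. For each gene the ratio of summed CPM was taken with 0.5 counts added, and a gene was counted when it passed 2-fold with at least 50 UMIs. Of 7188 genes, 456 were higher (6.34%) and 462 lower (6.43%) in late than in medium members. Of 6827 genes, 581 were higher (8.51%) and 519 lower (7.6%) in medium than in early members. With 2 counts added in place of 0.5 the splits were 543 and 338 for late over medium and 255 and 687 for medium over early, so the balance of directions rests on this choice. These counts compare 1 tumor sample with another and carry no P value. Values by library are given below for libraries with at least 20 members, which are 3 early, 4 medium and 2 late ones, and leave out an early library with 4 members and a late one with 18.

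Each of the 15 interferon-inducible GTPases with enough UMIs was lower in late than in medium members, with a median log2 ratio of -2.97 against 0.14 over all genes. Iigp1, an immunity-related GTPase, stood at 156, 201 and 1.81 CPM (early, medium, late), the late value being 1 UMI, 111-fold (95% interval 19.8 to 4377) below medium. Gbp2 stood at 285, 99.7 and 9.07 CPM, with 88.6 to 445 CPM over the early libraries, 74.1 to 110.3 over the medium and 0 to 14.2 over the late ones, so these 2 late libraries lay below the others, as did the late library with 18 members, at 21.0 CPM. Irgm1 stood at 111, 101 and 7.26 CPM, and Igtp, whose promoter with a GAS and an ISRE is shown above, at 83.4, 80.6 and 19.96 CPM. Within run 2 alone 12 of the 12 with enough UMIs were lower (median -3.08), and within run 3 alone 8 of 8 (-3.50).

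Type I interferon-stimulated genes were lower too, 19 of 23 lower and none higher (median -2.54). Isg15 stood at 222, 435 and 49.0 CPM, with 59.1 to 460.4 CPM over the early libraries, 346 to 491 over the medium and 36.0 to 67.6 over the late ones. Irf7 stood at 38.2, 117 and 3.63 CPM and Rsad2, an antiviral radical enzyme, at 76.4, 104 and 1.81 CPM. Ifi44 stood at 3.47, 213 and 3.63 CPM, a medium-stage peak with low values on both sides, and its neighbor Ifi44l had 291 UMIs in medium and 0 in early and late members. The late members thus held the lowest level of Isg15, Irf7 and Rsad2, and the medium members the highest.

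MHC class I presentation followed the same order. Of 22 genes, 15 were lower and none higher in late than in medium members (median -1.36). H2-K1 stood at 3228, 4436 and 1098 CPM, with 3073 to 3283 CPM over the early libraries, 4029.6 to 4816 over the medium and 994 to 1085 over the late ones, and with 1663 CPM in the late library that held 18 members. B2m, the light chain of class I, stood at 4358, 5338 and 1848 CPM, the peptide transporter Tap1 at 188, 196 and 58.1 CPM and the proteasome subunit Psmb9 at 115, 209 and 90.7 CPM. Class I genes of the H2-K, H2-D and H2-Q groups are closely related copies, and the mice were of mixed strains mapped to 1 reference, so the split of reads between these genes is uncertain.

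Class II loading genes did not follow. Of 11 with enough UMIs, 1 was lower and none higher in late than in medium members, with a median of -0.09. H2-DMa stood at 844, 985 and 926 CPM, a late over medium log2 ratio of -0.09 (95% interval -0.23 to 0.05). H2-DMb1 stood at 712, 576 and 608 CPM and Ciita at 118, 114 and 103 CPM, with a ratio of -0.12 (95% interval -0.57 to 0.27). The 1 lower gene was H2-Oa, a chain of the H2-DM inhibitor H2-O of B cells and dendritic cells, at 62.5, 126 and 7.26 CPM. Of the class II chains used by the rule, H2-Ab1 stood at 2999, 2822 and 2986 CPM, and the 4 genes summed to 45170, 56313 and 36995 CPM. The minimum of 20 UMIs held every member above a floor, which limits how far these genes could differ. Microglia had no such minimum, and there 6 of 12 loading genes were lower and 1 higher in late than in medium cells (median -0.84). Of all genes in microglia 1.92% were lower. In complement-low cells 1 of 9 loading genes was lower, and in Arg1/Spp1 macrophages none of 6. The part of the minimum in the level of the loading genes was not tested.

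Of the 18 chemokines with enough UMIs, Cxcl9 differed most between late and medium members. It stood at 479.5, 809.8 and 12.7 CPM (early, medium, late), a late over medium log2 ratio of -5.89 (95% interval -7.31 to -4.95), -4.66 within run 2, and the late members of run 3 held no UMI. A UMI of Cxcl9 was found in 11 of 136 early (8.09%), 393 of 1316 medium (29.9%) and 2 of 215 late members (0.930%). After each cell was thinned to 1500 UMIs the shares were 9.62%, 27.98% and 1.09%. Libraries with at least 20 members held 19.7 to 805 CPM over the early libraries, 623 to 1054 over the medium and 0 to 24.9 over the late ones, the late library with 18 members held no UMI, and without its highest cell the early level was 233 CPM, so much of the early value came from 1 cell. In all, 10 of these chemokines were lower and 3 higher, with Ccl5 at 129, 240.1 and 14.5 CPM, Ccl8 at 136, 333 and 50.8 CPM and Cxcl10 at 403, 521 and 207 CPM. Cxcl13 was a medium-stage peak, at 883, 3911 and 909 CPM. The summed T cell markers in the members were 195, 221 and 54.4 CPM and those of NK cells 104, 107 and 10.9 CPM, both lowest in the late sample. In complement-low cells the T cell markers summed to 662, 314 and 221 CPM and the interferon-inducible GTPases to 671, 1973 and 193 CPM. The part of T and NK cells in the result was not tested.

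**Figure D4:**
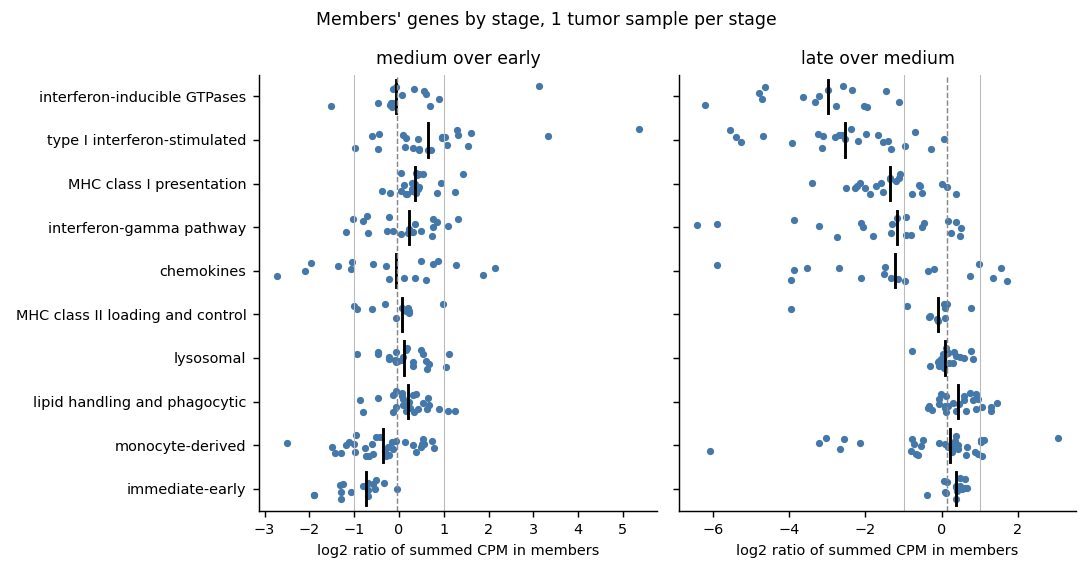
Log2 ratio of summed CPM in the members for each gene with at least 50 UMIs, by gene list, late over medium and medium over early; black bars are list medians, the dashed line is the median of all genes, and grey lines mark 2-fold. All 15 interferon-inducible GTPases and 19 of 23 type I interferon-stimulated genes lie past 2-fold lower in late members, against 1 of 11 class II loading and control genes.

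**Figure D5:**
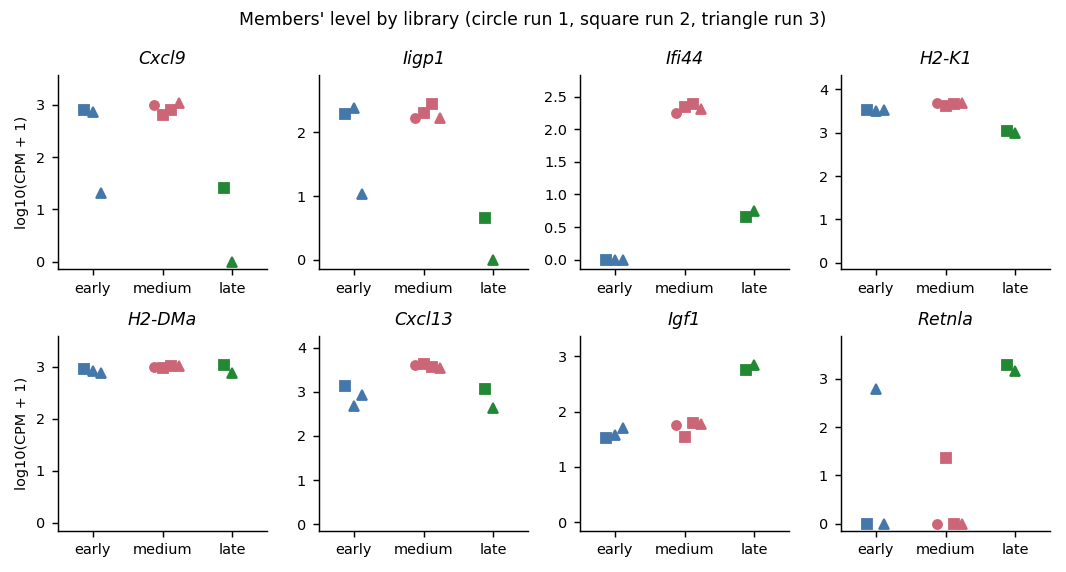
CPM in the summed members of each library with at least 20 members, as log10(CPM + 1), for 8 genes, with color for stage and marker shape for run. The late libraries lie below the medium ones for Cxcl9, Iigp1, Ifi44, H2-K1 and Cxcl13 and above them for Igf1 and Retnla, and for H2-DMa the late libraries overlap those of both other stages.

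The interferon-inducible GTPases and type I interferon-stimulated genes were, as lists, lower in the late than in the medium sample of microglia and complement-low cells as well. In microglia 9 of 11 interferon-inducible GTPases were lower past 2-fold (median -1.44) and in complement-low cells 12 of 13 (-2.98), where 1.92% and 8.70% of all genes were lower. Type I interferon-stimulated genes were lower in 8 of 10 and 4 of 8 cases. For MHC class I genes the counts were 13 of 21 in microglia, 8 of 19 in complement-low cells and 7 of 14 in Arg1/Spp1 macrophages, where 4.09% of all genes were lower. Fewer than 3 genes of either of these interferon lists reached 50 UMIs in Arg1/Spp1 macrophages, so they were not counted. Of the interferon-gamma pathway genes, 11 of 21 were lower in the members (median -1.17) and 7 of 16 in microglia (-0.64). In complement-low cells 4 of 12 were lower and 2 higher (0.05), and in Arg1/Spp1 macrophages none of 8 was lower or higher past 2-fold (0.19).

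The genes highest by rank in late over medium members were Rnase2a, Retnla, Ear2, Ear1, Igf1, Fcrls, Postn, Fn1, Aldh1b1 and Mgst1. Rnase2a had 385 UMIs in 81 late members (37.7%) and none in early or medium members, at least 670-fold higher than medium. Retnla stood at 170.3, 9.03 and 1675 CPM. In the late sample it was spread over 79 cells (36.7%). Rnase2a, Ear1 and Ear2 belong to 1 family of near-identical ribonucleases. Igf1 stood at 38.2, 48.3 and 641 CPM, with 31.8 to 49.2 CPM over the early libraries, 33.2 to 62.3 over the medium and 569 to 688 over the late ones, and was found in 5.15%, 6.84% and 58.1% of members. Apoe stood at 16812, 22714 and 47535 CPM, these 2 late libraries (42660.3 to 52272 CPM) lying above the medium ones (21990.2 to 23454 CPM). Of 26 lipid handling genes, 4 were higher and none lower (median 0.42), and of 22 lysosomal genes none passed 2-fold in either direction. Of 15 genes that the study listed as M2-like, 2 were higher and 2 lower, and the list summed to 14588, 19199 and 19632 CPM (early, medium, late).

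The lowest genes by rank were Igha, Jchain, Igkc, Ifi44l, Acod1, Serpina3f, Iigp1, AI506816, Ly6i and S100a9. Acod1, the itaconate-producing enzyme of activated macrophages, Serpina3f, a serine protease inhibitor, and Ly6i, a Ly6 family surface protein, had no UMI in late members, at least 14.3, 13.3 and 11.2-fold lower. Igha, Jchain and Igkc belong to plasma cells and S100a9 to neutrophils. B cell markers summed to 4123 CPM in medium and 270.4 CPM in late members and neutrophil markers to 1691 and 176 CPM, and their part in the result was not tested.

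Between early and medium members, the listed groups differed in either direction. Of 18 chemokines 3 were higher and 6 lower in medium members. Type I interferon-stimulated genes were higher in 8 of 23 cases and lower in none (median 0.65), while 1 of 15 interferon-inducible GTPases was higher and 1 lower. Immediate-early genes were lower in 7 of 16 cases and higher in none (median -0.74), with Jun at 681, 289 and 407 CPM and Dusp1, a phosphatase induced by stress, at 2061, 845 and 1099.8 CPM. The median of this list was below 0 in the other populations too. In T cells 5 of 14 were lower (median -0.56) and in complement-low cells 5 of 16 (-0.70), where 5.27% and 4.48% of all genes were lower. In microglia 1 of 16 was lower (-0.42), a share near the 4.08% of all genes. In Arg1/Spp1 macrophages 2 of 9 were lower and 1 higher (-0.31), where 8.42% of all genes were lower and 11.1% higher. Genes lower by rank in medium were Clec10a, Postn, Mgl2, Ino80d, Clec4a1, Cxcl1, Col27a1, Ahnak, Serpinf1 and St8sia6, with Mgl2 at 215, 25.7 and 136 CPM and Clec10a, the related lectin, 3.78 lower on the log2 scale. Genes higher by rank were Ighg2b, S100a8, S100a9, Ngp, Ifi44l, Camp, Ifi44, Retnlg, AI506816 and Ltf. Of these, S100a8, S100a9, Ngp, Camp, Retnlg and Ltf are neutrophil genes, and 1229 of the 1356 Ighg2b UMIs lay in 1 cell. Neutrophil markers were higher in 6 of 9 cases, and S100a8, Ngp, Camp, Retnlg and Ltf had no UMI in early members. Without members that held UMIs of other lineages, 3 neutrophil markers had enough UMIs and 1 was higher (median -0.48). That removal counted neutrophil genes themselves, S100a8 and S100a9 among them.

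Within the members, Cxcl9 was unevenly spread. Of 1667 cells, 406 held a UMI and 145 (8.70%) held 5 or more, up to 71, and the 10% of cells with most held 82.9% of its UMIs. Over 2292 genes found in at least 10% of members, the genes most correlated with Cxcl9 across the 1667 cells (log CPM, Pearson's r, no test) were Serpina3g (0.27), Dnase1l3 (0.24), Cxcl10 (0.23), Gbp2 (0.22) and Il2rg (0.22). Gbp2 and Cxcl10 are interferon-induced, and Il2rg is the common cytokine receptor chain. Of the cells with a UMI, 393 came from the medium sample, where r was 0.25, 0.22, 0.23, 0.20 and 0.19. The lowest r was that of Ctsd, -0.23. Cells share library and depth, and correlations of this size in sparse counts describe the cells and show no relation.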

How the data were processed

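The deposited table held raw UMI counts for 50262 genes in 20811 cells of 24 inDrop libraries. The authors sorted viable CD45+ and CD45- cells, mapped reads with RapMap in bcbio-nextgen to a GRCm38 transcriptome with the transgenes added (build mm10 per the labels) and counted UMIs. The study also describes removal of ambient RNA and of doublets, and whether either preceded deposit was not given in the sources used here. Stage and sort came from the deposited library annotation, a table of category names of no numeric unit (other). The 9091 columns of the CD45- sort were not used. Some genes, and 1 further allele that all groups share, are not reported here. Identifiers without a symbol numbered 112 of 50262 and were left out of named genes. Coordinates are from GENCODE on mm10, and promoters from RefSeq on GRCm38.p6.

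Cells were summed per tumor sample and population. Sums were tested with edgeR 4.0.16 (TMM, filterByExpr, robust quasi-likelihood, tumor sample as block, 2 residual degrees of freedom) in R 4.3.3 with limma 3.58.1, at a Benjamini-Hochberg adjusted P of 0.05. Deviations of both populations of a sample from their means correlated at 0.120 to 0.291 over the 9 pairs, and the pairing comes from the shared tumor. In simulated counts, 70% (Arg1/Spp1), 84% (microglia) and 79% (complement-low) of 4-fold changes and 7%, 32% and 21% of 2-fold changes were recovered. Shares carry exact 95% intervals, and stage ratios an exact conditional interval with 0.5 counts added. Intervals and floors of 3 counts cover counting error only. Members and gene lists were chosen with earlier results of these data known. Genes named by rank were the 10 highest and 10 lowest fold changes among called genes of the same direction in 3 of 3 samples with at least 30 UMIs in the higher population, or, between stages, the 10 highest and 10 lowest ratios with at least 50 UMIs and the same direction within runs 2 and 3. Gene models, sex-linked genes and genes of the rule were left out, and further genes named came from the lists or were chosen after their values were seen. Alternatives were DESeq2 1.42.0, other scalings and filters, no block, each tumor sample or run left out, cells thinned to 1500 UMIs, doublet calls (Scrublet in scanpy 1.11.5), other thresholds and, added after seeing the data, removal of the highest 5% of doublet scores or of cells with UMIs of other lineages, and of the highest cell of each gene.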

Additional observations from a re-analysis of the deposited data

How the results depend on the processing

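The order of the shares (medium, late, early) held under each alternative. In the early, medium and late samples they were 2.05%, 30.4% and 8.82% with at least 40 class II UMIs, 1.33%, 22.4% and 5.38% with no microglia UMI allowed, 4.29%, 39.2% and 12.7% with up to 5 allowed, 5.75%, 35.3% and 13.02% with no limit on Mrc1, Cbr2 and Pf4, and 3.56%, 35.6% and 15.5% after thinning to 1500 UMIs. The late share was 14.6% with no limit on Arg1, Spp1 and Gpnmb and 16.7%, 11.8% and 8.11% in runs 1, 2 and 3 alone. The early share was 2.19% in run 2 alone. The medium share was 30.7% with at least 10 C1q UMIs and 39.1% without cells of other lineages. Leaving out 1 library gave 2.504% to 2.90%, 31.8% to 33.6% and 8.89% to 12.3%.

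Against Arg1/Spp1 macrophages the 43 calls became 15 with DESeq2 (8 higher, 7 lower, with 4936 adjusted P values not given), 24 with every gene tested (17 and 7), 25 after thinning (16 and 9), 2 to 43 with 1 tumor sample left out (2 without medium, 5 without late), and 0 without the replicate block that pairs the populations of a tumor, where 295 of 5545 genes had an unadjusted P under 0.05. The early arm could not be fitted without run 3, which held its 9 cells. Against microglia the 2209 calls became 1464 with DESeq2 (902 and 562), 1378 and 1369 without run 2 or run 3, 536 against microglia matched on class II (312 and 224), and 1281 to 2173 with 1 tumor sample left out, the fewest without the medium one. Against complement-low cells the 769 calls became 454 without the replicate block (286 and 168), 415 and 460 without run 2 or run 3, and 386 to 570 with 1 tumor sample left out, the fewest without the early one. DESeq2 shared 15, 1431 and 511 of the calls of the 3 comparisons. Past 2-fold, the 1100 genes of medium over early became 678 after thinning, 521 without run 2 and 2314 with at least 20 UMIs, and the 918 of late over medium became 578 without run 2 and 1964 with at least 20 UMIs.

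Between populations, 9 values of the genes named here changed sign, none of them called, and over all called genes at most 2 did under any 1 alternative. Cxcl13 against Arg1/Spp1 macrophages (0.07) was -0.11 without normalization factors and -0.17 to 0.14 with 1 tumor sample left out (lowest without the medium one). Against microglia, Cxcl10 was 0.074 without run 2. Against complement-low cells, H2-DMa (-0.05) was 0.073 with every gene tested, -0.28 to 0.11 with 1 tumor sample left out (above 0 without the early or the late one) and 0.19 without run 3, and H2-DMb1 (0.11) was -0.038 without normalization factors and -0.019 to 0.21 with 1 tumor sample left out (lowest without the medium one). Between medium and early members, Igha and Jchain were -0.40 and -0.33 and Retnla 1.35 without run 3, Ighg2b -0.20 without run 2 and Ltf -0.45 without cells of other lineages. Between late and medium members, Ighg2b was 2.53 without run 2 and Retnlg 1.21 without cells of other lineages. Among the 25 named calls against Arg1/Spp1 macrophages, 2 (Hspa1b and Sfr1) were lost without the early sample, 18 of the 20 that could be tested without the medium one (Ccl2, Ccl7, H2-DMa, H2-DMb1 and Fn1 among them) and 17 of 21 without the late one, these 5 included, and 8 of 20 were lost with DESeq2 and 11 of 23 after thinning. Without normalization factors 2 of these 25 were lost (Ctsd and Lpl), and with every gene tested 9 of 25, Ctsb and H2-DMa among them. Without run 2 the calls of 7 of 21 were lost, Fabp5, H2-DMa and Lpl among them. Removal of cells of other lineages ended 3 of 23 (Lpl, Sfr1 and Vat1). Among the 45 against microglia, Cd274 and Lck were lost without the early sample, Adamts16, Bend5 and Trem2 without the medium one, H2-DMb2 without the late one and 8 of 33 with class II matched (Apoe, Cd274, H2-DMb2, H2-K1, Il1b, Lck, Lpl and Trem2), 7 with DESeq2 (Apobec2, Bend5, Cd274, Lck, Myadml2, Rsl1 and Trem2), 9 of 36 without the replicate block (C3, Ccl8, Cd274, Cfb, H2-K1, Irf7, Isg15, Retnla and Trem2) and 4 of 34 after thinning (Isg15, Jun, Siglech and Tnf). Runs left out in turn ended those of Cd4, Cd274, H2-DMb2, Lck and Trem2, and no normalization factors that of Cd274. Among the 36 against complement-low cells, Ctsl, Cxcl10 and Zbtb46 were lost without the early sample, Cxcl10 without the late one, 5 of 26 without the replicate block (Ctsl, Cxcl10, Cxcl13, Ifitm1 and Igf1) and 3 of 30 after thinning (Ccl8, Ctsl and Klk1). Runs left out in turn ended those of Ctsl, Cxcl10, Ryr1 and Tfpi, no normalization factors those of Ctsl and Cxcl10, and removal of cells of other lineages that of Cxcl10. The cause was not tested. Of the other single-gene values, 1428 kept direction and call, 29 gained and 161 lost the call between populations, and 98 moved between stages. Depth limits the early Arg1/Spp1 sum, of 9 cells.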
